A study of Homo sapiens with 4 samples.

Results

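The transcripts described here are long noncoding RNAs of 2 naming classes, LINC genes (long intergenic noncoding RNAs, named by a number) and antisense genes (named after the coding gene on the opposite strand, with -AS and a number). They were chosen by symbol, by the noncoding (NR_) RefSeq prefix, by a status of OK in all 4 libraries and by a mean FPKM (read fragments relative to transcript length and library size) of at least 0.5, and OIP5-AS1 was left out. Of 53209 transcripts listed, 2430 had such a symbol, 2427 of these had status OK throughout, and 175 transcripts of 157 genes passed. They were 68 LINC transcripts (63 genes) and 107 antisense transcripts (94 genes). Another 1818 candidates were listed at 0 in every library. The choice rests on the mean over both arms, so the mean levels of the members are a description and were not tested.

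The libraries came from DU-145, an established human prostate carcinoma line, in which miR-28-5p duplexes were captured together with the RNAs bound to them. Both arms received 60 nM of duplex and were irradiated at 365 nm with 2 J/cm2 after 24 h. In the miR-28BIO arm the duplexes carried a 3′ biotin and a thiouridine at nucleotide 8 or 18, which ultraviolet light can crosslink, whereas the control arm, miR-28CT, received an untagged duplex. RNA held by streptavidin beads was sequenced in 2 libraries per arm, so a value above control stands for a larger share of the RNA on the beads. Whether the cell's own RNA level differed between the arms cannot be told from these libraries. Both arms carried extra miR-28-5p, and no library of untransfected cells or of total RNA was analysed here. The labels call the libraries replicates 1 and 2 of each arm, and p-values measure only the spread between these libraries.

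Long noncoding RNAs are transcribed, and mostly capped and spliced, like messenger RNAs but are not known to encode a protein of ordinary length. Some act in the nucleus on nearby genes or on chromatin, and others reside in the cytoplasm, where several were described as binding partners of microRNAs. An antisense RNA can overlap the coding gene it is named after or start beside it from a shared promoter region, and only counting by strand separates their reads where they overlap. The deposited values do not state a strand setting, so reads of overlapping partners cannot be told apart here.

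Epithelial markers were present in every library, with a summed FPKM of KRT8, KRT18, KRT19, EPCAM and CDH1 between 57.0 and 198. Leukocyte, endothelial and fibroblast lists summed to at most 0.559, 0.0210 and 0.178 FPKM. Coverage times transcript length gave about 5.46 to 7.43 M reads per library on the listed transcripts, of which the members held 0.0945% to 0.263%. The median member had an estimated 20.3 to 34.1 reads in a library, and 36 to 58 of the 175 members had fewer than 10. These low read numbers limit every comparison that follows.

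Most members were scarce. Their mean FPKM ran from 0.51 to 12.8 with a median of 1.02, against a median of 2.68 over all 15587 transcripts tested. Only 13 members reached a mean of 5, and 82 stayed under 1. At the threshold, ID2-AS1 (0.508) and LINC01116 (0.508) were the lowest members, and LINC00260 (0.486) and FBXL19-AS1 (0.484) were the highest candidates left out. Members had a median length of 1782 bases, against 2857 over all tested transcripts and 1787 over the tested noncoding transcripts outside the members, and 27 consisted of 1 exon. In 17 genes more than 1 transcript was a member. At least 1 library listed 44 members at 0, and 30 of these belonged to genes with several transcripts of status OK, among which Cufflinks divides the reads. A mean scaled FPKM of at least 0.5, where scaled means divided by the library's median-of-ratios factor, was needed for the test, and 171 members passed it. The transcripts PRKCQ-AS1 NR_036502, DCST1-AS1 NR_040773, ID2-AS1 NR_110154 and LINC02293 NR_110557 were just under that limit.

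The most abundant member was LINC00707 (chromosome 10, 6779598 to 6842906, hg38), an intergenic RNA of 3070 bases. Its scaled FPKM was 11.6 and 9.19 in the miR-28CT libraries and 16.2 and 12.9 in the miR-28BIO libraries. Both miR-28BIO values lay above both control values, and the log2 fold change was 0.49 ± 0.45 (SE, n = 2 per arm; limma, adjusted p = 1.00). URB1-AS1, a transcript of 825 bases that starts 121 bases from its coding neighbour URB1 and runs the other way, had nearly the same scaled FPKM everywhere, 12.1 and 11.9 in control and 12.1 and 11.8 in miR-28BIO. Its log2 fold change was -0.01 ± 0.41. VPS9D1-AS1 reached a similar mean in a different way, with 4.31 and 20.2 in control and 3.33 and 22.3 in miR-28BIO. In that gene the libraries numbered 2 were high and those numbered 1 low in both arms. THAP9-AS1 (11.7, 4.29, 11.1 and 3.73 in the order control 1 and 2, miR-28BIO 1 and 2) and DLGAP1-AS1 (8.91, 3.17, 10.8 and 3.42) showed the opposite order of library numbers. LINC00641 transcript NR_038970 had 8.53 and 4.02 in control and 12.1 and 6.21 in miR-28BIO. Its arms overlapped, although within each library number miR-28BIO was the higher.

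**Figure D1:**
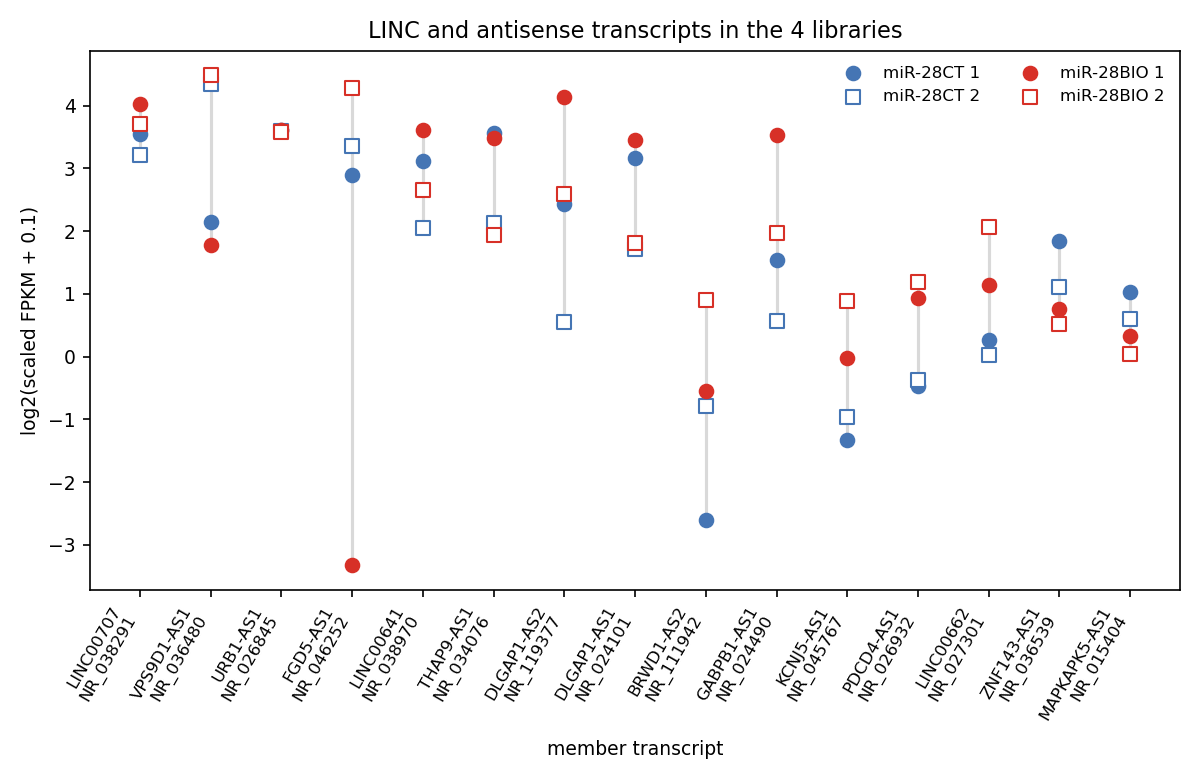
Scaled FPKM, as log2 after adding 0.1, of the 8 most abundant members, of the members with the largest positive change among those above 0 in every library, and of 2 members with lower values in miR-28BIO. Each point is 1 library, blue for miR-28CT and red for miR-28BIO, filled circles for replicate 1 and open squares for replicate 2; FGD5-AS1 NR_046252 has its lowest point where miR-28BIO 1 is listed at 0.

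The central question of the pull out is which RNAs were recovered more with the tagged duplex. No member was called at an adjusted p under 0.05, and neither was any of the 15587 transcripts tested (0%). The study itself ran Cuffdiff on the reads, which FPKM values cannot repeat, and called transcripts enriched in miR-28BIO at a q-value under 0.05. It reported enrichment by qRT-PCR for most of those it selected for measurement. The lack of calls here holds for this limma fit and does not bear on that list. The smallest adjusted p was 1.00 among members and 0.151 over all transcripts (limma). An unadjusted p under 0.05 was found for 2 members of 171, TAPT1-AS1 NR_027696 and TMEM147-AS1, against 3.57% of all tested transcripts. Both were listed at 0 in both control libraries and passed the filter through miR-28BIO alone, and no member above 0 in all 4 libraries had such a p. For 2 libraries against 2, the smallest p that exact permutation (two-sided) allows is 0.333, so that test was not used.

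Without regard to a test, members had more transcripts with both miR-28BIO values above both controls than with the reverse order. Both miR-28BIO values were above both control values in 31 of 171 members, 18.1%, beside 11.5% of all tested transcripts. They were below in 14 members, 8.19%, beside 12%. Separation by at least 2-fold was found in 7 members above (all tested: 3.57%) and in 1 below (all tested: 2.62%). Of these 7, 4 were listed at 0 in both controls, so that they passed the filter through miR-28BIO alone, and the 1 below was listed at 0 in both miR-28BIO libraries. Among the 130 members above 0 in every library 3 remained, beside 222 of 9959 transcripts. With the Cufflinks intervals of the arms apart, 9 members were above, 5.26%, beside 6.6% of all tested transcripts, and 1 was below, beside 4.43%, so that by this measure the members lay under the share of all transcripts in both directions. The median log2 fold change was 0.14 over members and -0.08 over all tested transcripts, while the 1405 noncoding transcripts tested outside the members had -0.04. In the 130 tested members above 0 in every library the median was likewise 0.14. Among the 45 tested members with a mean FPKM of at least 2, however, the median was -0.05. Leaving out control replicate 1 lowered the median of members to 0.0052. These are descriptions of the list and carry no p.

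The LINC and antisense classes differed in their medians. LINC members had a median log2 fold change of 0.36 over 67 transcripts, with 13 above (19.4%) and 4 below (5.97%), and antisense members had -0.03 over 104, with 18 above (17.3%) and 10 below (9.62%). Of all tested transcripts, 11.5% were above and 12% below. The LINC median was positive in every alternative run, from 0.12 to 0.52, whereas the antisense median changed sign between alternatives, from -0.11 to 0.16. The values of 0.52 and 0.16 came from the run without scaling, where the median of all tested transcripts rose as well. Above that median, the antisense median stood at 0.05 with the main scaling and 0.08 without. The LINC median stood at 0.43 and 0.44 above it. The difference between the classes was not tested, since a list carries no test here.

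**Figure D2:**
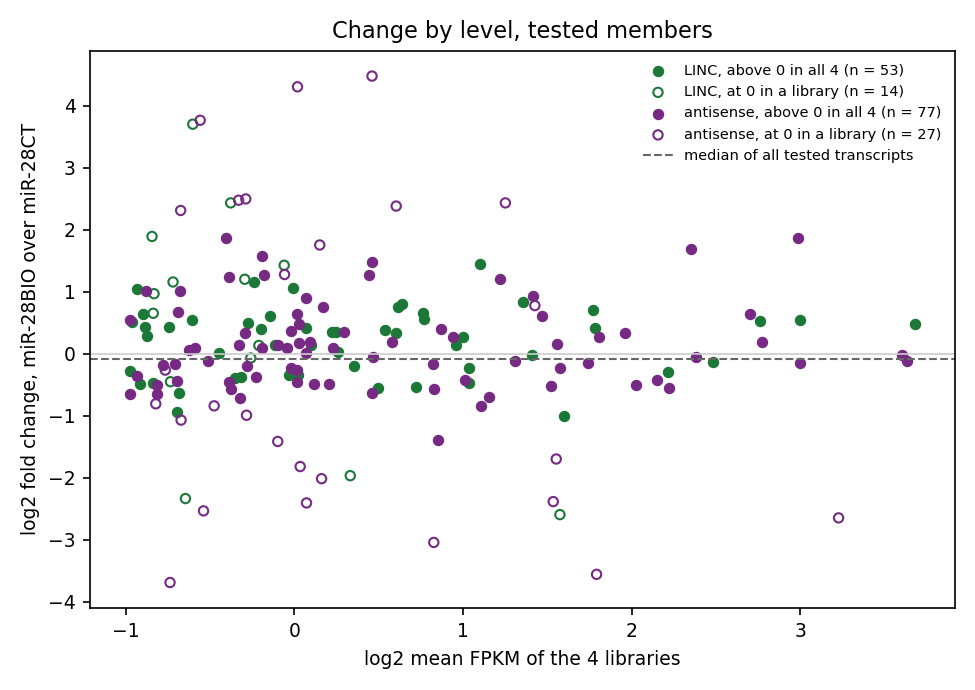
Log2 fold change of miR-28BIO over miR-28CT against log2 mean FPKM for the 171 tested members, green for LINC and purple for antisense; open circles are members listed at 0 in at least 1 library, and the dashed line is the median of all tested transcripts, -0.08. The values beyond 2 in either direction belong to members listed at 0 in a library.

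Among members above 0 in all 4 libraries and higher in both miR-28BIO libraries, a set picked after its values were seen, the largest changes at the pseudocount of 0.1 were those of BRWD1-AS2, DLGAP1-AS2, GABPB1-AS1, KCNJ5-AS1, PDCD4-AS1 and LINC00662. DLGAP1-AS2 (chromosome 18, 3603737 to 3610089) lies within the span of DLGAP1, a gene for a postsynaptic scaffold protein. Its scaled FPKM was 5.28 and 1.36 in control and 17.5 and 5.89 in miR-28BIO, with a log2 fold change of 1.87 ± 0.98 (95% interval -0.87 to 4.61; limma, adjusted p = 1.00). The lower miR-28BIO value exceeded the higher control value by a small margin, and the controls differed more than that from each other. Leaving out 1 library moved the log2 fold change to between 0.93 and 2.81. DLGAP1 itself was listed at 0 in every library. GABPB1-AS1 (chromosome 15, 50354174 to 50358306), which overlaps the gene for the beta subunit of the transcription factor GABP, had 2.80 and 1.38 in control and 11.5 and 3.80 in miR-28BIO. Its log2 fold change was 1.69 ± 0.82, and GABPB1 had 4.43, 2.18, 3.33 and 1.95 in the same order, with a log2 fold change of -0.28. Without 1 library GABPB1-AS1 had a log2 fold change between 0.91 and 2.48.

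PDCD4-AS1, beside the gene of the translation inhibitor PDCD4, was the most even of the 6, with 0.62 and 0.67 in control and 1.81 and 2.17 in miR-28BIO. Its log2 fold change was 1.49 ± 0.74 (95% interval -0.57 to 3.55), and an estimated 15.0 to 69.3 reads per library stood behind it. LINC00662 (chromosome 19, 27790493 to 27793940) had 1.10 and 0.92 in control against 2.09 and 4.07 in miR-28BIO, a log2 fold change of 1.45 ± 0.71. KCNJ5-AS1, inside the span of a potassium channel gene listed at 0 throughout, had 0.30 and 0.41 against 0.89 and 1.75. BRWD1-AS2 had a log2 fold change of 1.88 ± 1.35, and its 4 libraries held an estimated 1.21, 5.29, 10.8 and 28.9 reads. Without 1 library it ranged from 0.97 to 2.78. The values of these scarce transcripts and their order depend on the pseudocount, and at 1 in place of 0.1 the log2 fold change was 0.74 for BRWD1-AS2, 0.75 for KCNJ5-AS1, 0.86 for PDCD4-AS1 and 0.98 for LINC00662, below 1.55 for DLGAP1-AS2 and 1.36 for GABPB1-AS1. The arms of these 6 transcripts do not overlap because they were picked for that, and no adjusted p was under 1.00 to the digits given.

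The promoter windows of DLGAP1-AS2 and LINC00662, an antisense and an intergenic member of that set, are shown because they differ in CG dinucleotides, a sequence feature that the choice of members did not use. The windows run from 250 bases before to 50 after the gene's start, come from RefSeq (GRCh38.p14) and have each CG in capitals. That of DLGAP1-AS2, chr18:3603487-3603786, is on the plus strand and holds 3, and that of LINC00662, chr19:27793891-27794190, is on the minus strand and holds 20.
DLGAP1-AS2: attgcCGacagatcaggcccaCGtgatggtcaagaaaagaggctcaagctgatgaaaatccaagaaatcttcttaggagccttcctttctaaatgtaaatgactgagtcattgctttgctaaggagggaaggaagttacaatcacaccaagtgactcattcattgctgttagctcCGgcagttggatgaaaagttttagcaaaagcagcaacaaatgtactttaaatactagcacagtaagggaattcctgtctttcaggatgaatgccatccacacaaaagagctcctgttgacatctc
LINC00662: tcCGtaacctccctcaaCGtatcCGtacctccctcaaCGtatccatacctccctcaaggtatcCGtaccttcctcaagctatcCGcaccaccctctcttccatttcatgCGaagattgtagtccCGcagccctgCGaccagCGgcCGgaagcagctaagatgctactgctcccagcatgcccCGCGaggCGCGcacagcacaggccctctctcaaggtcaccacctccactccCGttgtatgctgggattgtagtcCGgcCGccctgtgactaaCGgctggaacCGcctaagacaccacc

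RefSeq windows were matched for 130 of the 157 member genes. The median number of CG in them was 23 over 96 windows of antisense genes and 12 over 56 windows of LINC genes, beside 14 over all 35116 windows. The windows shown, with 3 in an antisense gene and 20 in a LINC gene, have the reverse order and do not stand for their classes. The window of GABPB1-AS1 holds 6 and is not shown. One member window had none, against 1391 of all windows. Among the antisense member genes, 31 of the 73 with both starts on opposite strands had them within 1000 bases of each other. By the nearest starts, 22 of these 31 faced away from the coding gene and 9 had starts that overlapped head to head, and the spans of 3 of the 22 nevertheless overlapped.

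The largest fitted changes in each direction belonged to members listed at 0 in 1 whole arm, and no fold is given for these. TMEM147-AS1 was listed at 0 in both control libraries and had a scaled FPKM of 1.13 and 3.96 in miR-28BIO. It overlaps TMEM147, which had 35.4 and 182 in control and 13.4 and 118 in miR-28BIO, the higher FPKM in every library. ZSWIM8-AS1 (1.18 and 1.35 in miR-28BIO) and LINC00618 (0.99 and 1.46) were also listed at 0 in both controls, and the latter rests on an estimated 6.51 and 8.53 reads. TAPT1-AS1 showed both directions at once. Its transcript NR_027696 was listed at 0 in both controls and had 1.74 and 2.04 in miR-28BIO, while NR_027697 had 0.72 and 1.92 in control and was listed at 0 in both miR-28BIO libraries. Summed over the gene, TAPT1-AS1 had 0.72, 1.92, 1.74 and 2.04 in the order control 1 and 2, miR-28BIO 1 and 2, and its arms overlapped.

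In FGD5-AS1, PSMA3-AS1 and LINC00847 the transcripts varied between libraries while the gene sums of the arms overlapped. FGD5-AS1 transcript NR_046252 had 7.31 and 10.1 in control, was listed at 0 in miR-28BIO 1 and had 19.3 in miR-28BIO 2, whereas NR_046255 had 7.63 in miR-28BIO 1. The gene's sum was 9.83 and 13.4 in control and 7.63 and 19.3 in miR-28BIO, a log2 fold change of 0.08 ± 0.63. PSMA3-AS1 summed to 5.93 and 1.09 in control and 6.06 and 1.06 in miR-28BIO, a log2 fold change of 0.0027. LINC00847, whose transcript NR_045678 was higher in both miR-28BIO libraries, had a gene sum of 0.47 and 1.33 in control and 1.02 and 0.60 in miR-28BIO. By contrast, VASH1-AS1, whose transcript NR_104184 was listed at 0 in control 2 alone, kept separate arms as a gene sum, with 1.54 and 1.67 against 2.04 and 2.51, although the log2 fold change was 0.47 for the sum and 2.39 for the transcript. ZNF667-AS1 went the other way. The arms of its transcript NR_036522 overlapped (2.02 and 0 in control, 6.04 and 0.91 in miR-28BIO), while those of its gene sum did not. That sum was 2.02 and 0.45 against 6.04 and 4.09, a log2 fold change of 2.23. Over gene sums, 29 of 157 member genes had both miR-28BIO values above both controls (all genes: 12.3%) and 13 had them below (all genes: 12.7%). No member gene was called (all genes: 0.0265%), and 5 had an unadjusted p under 0.05 (all genes: 3.02%).

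Lower values in both miR-28BIO libraries were less frequent. PITPNA-AS1 had a scaled FPKM of 9.36 and 2.45 in control, was listed at 0 in miR-28BIO 1 and had 1.65 in miR-28BIO 2. ATP2A1-AS1 NR_046290 (1.96 and 1.30 in control, 0 and 0.93 in miR-28BIO) and LINC01816 (1.34 and 0.80, then 0 and 0.41) had the same form. Summed over the gene, however, ATP2A1-AS1 had 1.96 and 1.30 in control and 1.38 and 0.93 in miR-28BIO, so that its arms overlapped and the log2 fold change moved from -2.40 to -0.46. The transcript's value rests on a library listed at 0 and was -4.05 at a pseudocount of 0.01 and -0.91 at 1. ZNF143-AS1, which starts 314 bases from the transcription factor gene ZNF143 and faces away from it, was above 0 throughout, with 3.48 and 2.07 in control and 1.59 and 1.33 in miR-28BIO. Its log2 fold change was -0.84 ± 0.65, and ZNF143 had -0.30. MAPKAPK5-AS1 had 1.94 and 1.41 against 1.15 and 0.93, a log2 fold change of -0.63 ± 0.72. No value of this group passed the test.

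Lists of noncoding genes with a published description were compared by gene sums. Of 19 such LINC genes, 10 were tested, 1 had both miR-28BIO values above both controls (LINC00662) and 1 below (LINC00673), beside 12.3% above and 12.7% below of all genes. NORAD (LINC00657), a cytoplasmic RNA that binds PUMILIO proteins, is no member under its present symbol and had 24.7 and 5.48 in control and 22.9 and 5.68 in miR-28BIO. LINC00963 (3.41 and 8.14, then 2.90 and 8.05) and LINC00467 (10.6 and 0.83, then 5.01 and 1.20) varied between library numbers more than between arms. LINC00339 had 2.86 and 4.67 in control and 0.86 and 3.96 in miR-28BIO. Of 29 described antisense genes, 13 were tested, with 2 above (LOXL1-AS1 and TTN-AS1) and 2 below (MAPKAPK5-AS1 and the gene listed as PAXIP1-AS1), beside the same shares of all genes. The median log2 fold change was -0.19 over the LINC list and 0.09 over the antisense list, beside -0.08 over all genes, and none was called.

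The library number separated members more often than the arm did. In 59 of 171 members both libraries numbered 2 were above both numbered 1, 34.5% beside 29.3% of all tested transcripts. In 42 members they were below, 24.6% beside 28.4%. No member was called between the numbers (all tested: 0%), and 23 members had an unadjusted p under 0.05, beside 31.9% of all tested transcripts. The smallest adjusted p of a member was 0.072 for VPS9D1-AS1 (limma, arm as a term), whose log2 difference was 2.45. For DLGAP1-AS2, DLGAP1-AS1 and THAP9-AS1 the log2 differences were -1.72, -1.54 and -1.49, each with an adjusted p of 0.079 (limma). The largest differences without overlap were found in transcripts listed at 0 in a library, FGD5-AS1 NR_046252 and NR_046255, PSMA3-AS1 NR_029434 and LINC00641 NR_038971. The epithelial list also differed between numbers, with a summed FPKM of 97.7 and 57.0 in the libraries numbered 1 and 198 and 122 in those numbered 2. Within each number KRT8, KRT18 and KRT19 were lower in miR-28BIO than in control, while CDH1 was higher (0.907 and 0.981 in number 1, 1.16 and 1.77 in number 2) and EPCAM was lower in number 1 and higher in number 2. The part of this list in the members' values was not tested.

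**Figure D3:**
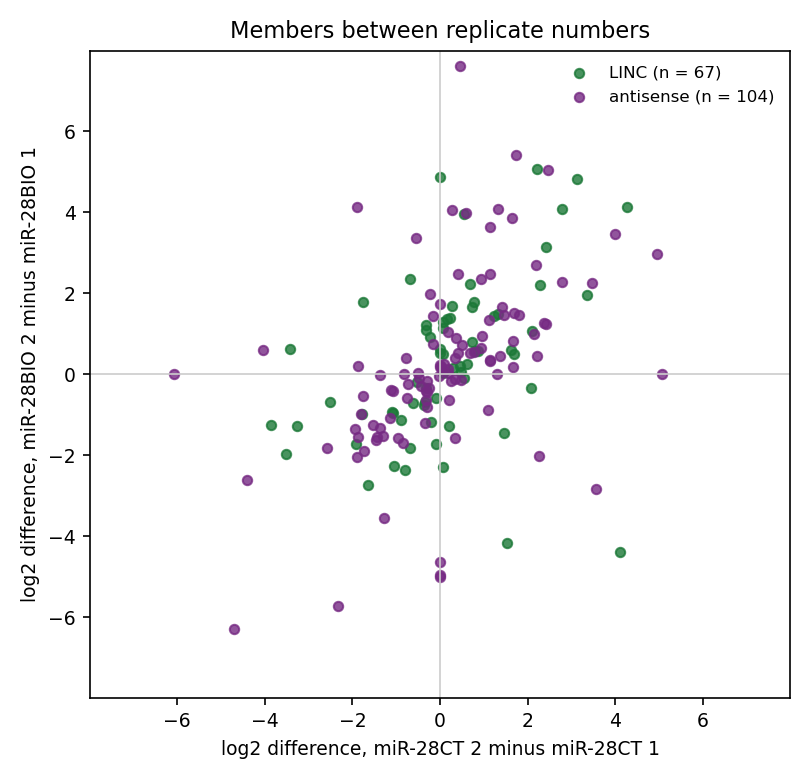
Log2 difference between the libraries numbered 2 and 1 in miR-28CT (horizontal) and in miR-28BIO (vertical) for the 171 tested members, green for LINC and purple for antisense. In 130 members both differences had the same sign, 76.0% beside 70.2% of all tested transcripts.

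A coding gene of the same name was listed for 91 of the 94 antisense member genes, and 64 of these had a summed scaled FPKM of at least 0.5. The coding gene had the higher level per length in 54 of the 91 pairs and the antisense gene in 37, and 13 coding genes were listed at 0 throughout. The antisense genes were chosen by their level and the coding genes were not, so nothing is read from this count. Across the 64 pairs, which share the 4 libraries and are not replicates, the log2 fold changes of the antisense gene and of its coding gene had a Pearson r of -0.01 and a Spearman rho of 0.11. The same sign was found in 36 pairs. In these 64 pairs, 9 antisense genes had both miR-28BIO values above both controls and 6 below, and 5 coding genes had them above and 12 below, beside 12.3% above and 12.7% below of all genes. Of the 9, 1 had a coding gene with the same order and 1 with the reverse order. In the 22 pairs with starts facing away from each other within 1000 bases, the coding gene was higher in 16.

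**Figure D4:**
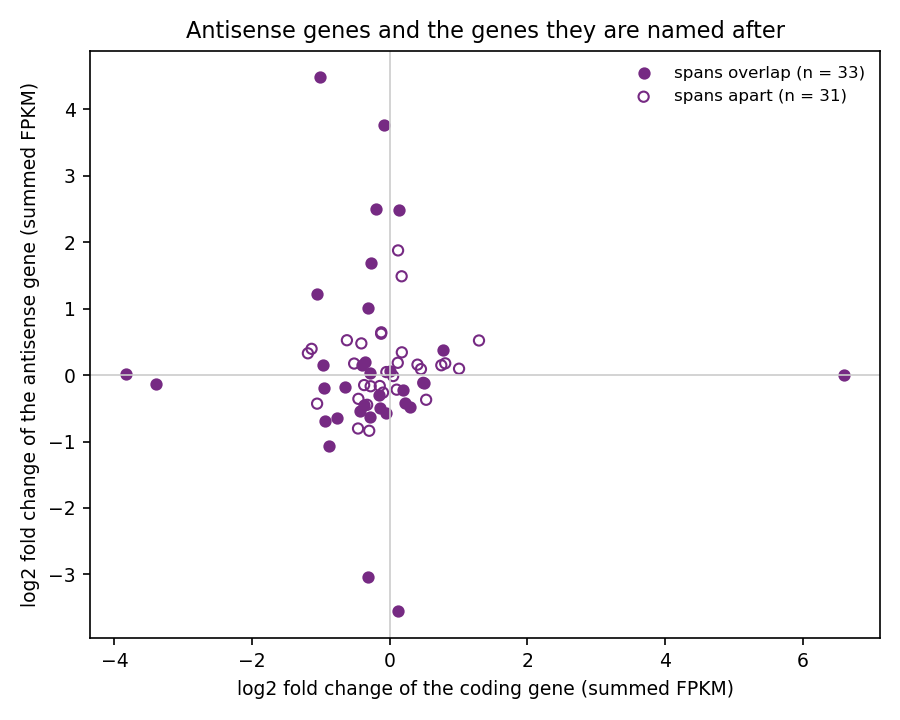
Log2 fold change of miR-28BIO over miR-28CT of the antisense gene against that of the coding gene it is named after, both from summed scaled FPKM, for 64 pairs; filled points are pairs whose spans overlap (33) and open points those apart (31). The points form no line, and the coding genes at the far left and right are listed at 0 in at least 1 arm.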

How the data were processed

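RNA captured from DU-145 cells was sequenced as 50 bp single reads from a stranded total RNA kit in 4 libraries. Per the labels and the study's methods, the authors checked reads with FastQC 0.10.1, trimmed them with cutadapt, aligned them to hg38 with TopHat2 2.0.9 and deposited Cufflinks 2.1.1 FPKM per RefSeq transcript, with a coverage signal and interval bounds. The annotation release and strand setting are not given in the sources used here, and deposited FPKM are not counts. Cufflinks divides reads among overlapping transcripts, so values of isoforms depend on each other.

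Transcripts were named through RefSeq (GRCh38.p14). FPKM were divided by median-of-ratios factors, 0.850 to 1.09, and log2(scaled FPKM + 0.1) was fitted with limma 3.58.1 (R 4.3.3; trend; Benjamini-Hochberg over 15587 transcripts with mean scaled FPKM of at least 0.5; threshold 0.05), a fold change on that scale understating low genes. Arms were compared without a block, and library numbers with the arm as a term. The script was tested on simulated data, where calls were required only at a small part of the observed spread. At the observed spread only the direction and the median error were checked. Reads were estimated as coverage times length over 50.

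Members and lists were chosen with earlier results of these data known. Named were the 8 most abundant members, the 6 largest changes each way among members with separated arms, the 4 largest differences between library numbers, the 3 most abundant of each list, and the transcripts next to the threshold. Alternatives were other pseudocounts, filters, scalings, gene sums, no trend, a replicate block and leaving out each library. A search for hsa-miR-28-5p seed matches was run with a motif that no file holds, its result was seen, and it was dropped and is not reported here. A further marker list, of prostate luminal cells, is not reported here.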

Additional observations from a re-analysis of the deposited data

How the results depend on the processing

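No member was called under any alternative run, and the median of LINC members was positive in all, including its values at a mean FPKM of at least 1 and 2 and with 1 transcript per gene, 3 subsets chosen after seeing the data. An estimated median of at most 34.1 reads per member and 2 libraries per arm limit the precision. The cause of the shifts given here was not tested. A search for miR-28-5p seed matches was run with a motif that no file holds and its result was seen before it was dropped, and neither it nor its 2 variations are reported.

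The number of members with an unadjusted p under 0.05 (2 as reported) was 5 at a pseudocount of 0.01, 5 without a filter, 0 at a mean of at least 1, 5 in gene sums and 5 without a trend, beside 3.02% to 4.26% of all features in these settings. The median log2 fold change of members (0.14) was 0.075 at a pseudocount of 1, 0.12 at a mean of at least 1, 0.29 without scaling, 0.16 with upper-quartile scaling, -0.046 among members of mean FPKM of at least 2 and 0.090 with 1 transcript per gene. Without scaling the median of all tested transcripts moved from -0.08 to 0.08, and the members' median stayed 0.21 above it. The LINC median (0.36) was 0.20 at a pseudocount of 1 and 0.52 without scaling. The antisense median (-0.03) was -0.027 and -0.023 at pseudocounts of 0.01 and 1, 0.011 without a filter, 0.16 without scaling, 0.022 with upper-quartile scaling, 0.072 in gene sums and, in subsets chosen after seeing the data, 0.060 among members above 0 in all 4 libraries, -0.014 and -0.11 at a mean FPKM of at least 1 and 2 and -0.11 with 1 transcript per gene.

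Members with both miR-28BIO values above both controls (31) were 17 of 88 at a mean of at least 1 (all tested: 11.2%), 7 when separation had to be 2-fold (3.57%) and 9 when the Cufflinks intervals had to lie apart (6.60%). Those below (14) were 11 of 88 at a mean of at least 1, 12.5% beside 12.7% of all tested, 8 without scaling, 1 at 2-fold (2.62%) and 1 by intervals (4.43%). Without scaling, 36 were above and 8 below, beside 14.0% and 8.98% of all transcripts. Between library numbers, the members' median log2 difference (0.22) was 0.11 at a pseudocount of 1, 0.11 without scaling and 0.10 with upper-quartile scaling. In gene sums, 3 of all genes were called lower in miR-28BIO and none higher.

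The labels give no shared culture or batch for a replicate number. Deviations of same-numbered libraries correlated with r = 0.42 over all tested transcripts and 0.44 over members. With the replicate block, 0 members were called and 7 of 171 had an unadjusted p under 0.05, 4.09% beside 12.0% of all tested transcripts. In gene sums with the replicate block, chosen after seeing the data, 26 member genes had an unadjusted p under 0.05, 16.6% beside 25.8% of all genes, and 0 were called, while of all genes 42 were called higher and 22 lower. The antisense median there was 0.072.

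Leaving out each library in turn, the median ranged from 0.0052 (without control replicate 1) to 0.23 over members, from 0.12 to 0.41 over LINC and from -0.10 to 0.10 over antisense members. Members with an unadjusted p under 0.05 ranged from 5 to 13 (all tested: 6.14% to 7.97%), members above from 56 to 67 (23.4% to 30.0%) and members below from 36 to 49 (25.2% to 36.6%), since 1 library against 2 is separated more readily.

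Of 26 named transcripts with a value, 14 had 1 sign throughout. Most of these had separated arms, many by the rule that named them. With separated arms, leaving out 1 library or changing the pseudocount cannot turn the sign, so a kept sign is no support there. Without scaling, the log2 fold change turned to 0.059 for VPS9D1-AS1, 0.16 for URB1-AS1, 0.028 for THAP9-AS1, 0.10 for LINC00641 NR_038971 and 0.047 for LINC00963. With upper-quartile scaling URB1-AS1 had 0.015. Gene sums, without and with the replicate block, gave 0.083 for FGD5-AS1, -0.023 for LINC00847, 0.0027 for PSMA3-AS1 and 0.46 for LINC00641. Leaving out single libraries gave ranges of -1.46 to 1.24 for VPS9D1-AS1, -0.031 to 0.0022 for URB1-AS1, -6.44 to 1.16 for FGD5-AS1 NR_046252, -2.36 to 3.92 for FGD5-AS1 NR_046255, -0.91 to 0.63 for THAP9-AS1, -0.62 to 1.00 for DLGAP1-AS1, -4.55 to 1.16 for PSMA3-AS1 NR_029434, -2.20 to 2.07 for LINC00641 NR_038971, -0.84 to 0.60 for LINC00963, -2.05 to 1.47 for LINC00467 and -2.12 to 0.11 for LINC00339. With the sign kept, the ranges were 0.32 to 0.65 for LINC00707, 0.022 to 1.09 for LINC00641 NR_038970, 0.93 to 2.81 for DLGAP1-AS2, 0.91 to 2.48 for GABPB1-AS1, 0.97 to 2.78 for BRWD1-AS2, 0.64 to 3.15 for LINC00847, 0.37 to 4.40 for VASH1-AS1, -5.62 to -1.49 for PITPNA-AS1, -4.09 to -0.72 for ATP2A1-AS1, -3.51 to -1.15 for LINC01816, -1.20 to -0.48 for ZNF143-AS1 and -0.84 to -0.41 for MAPKAPK5-AS1. Changing the pseudocount to 0.01 or to 1 gave, in that order, -4.29 and -1.09 for FGD5-AS1 NR_046252, 3.52 and 0.57 for LINC00847, 4.02 and 0.93 for VASH1-AS1, -5.22 and -1.88 for PITPNA-AS1, -4.05 and -0.91 for ATP2A1-AS1, -4.01 and -0.79 for LINC01816, -3.29 and -0.48 for PSMA3-AS1 NR_029434, 1.61 and 0.86 for PDCD4-AS1, 1.80 and 0.75 for KCNJ5-AS1, 2.43 and 0.74 for BRWD1-AS2, -0.67 and -0.38 for MAPKAPK5-AS1 and -1.06 and -0.66 for LINC00339.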
